A study of Homo sapiens with 8 samples.

Results

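The genes described here are 44 genes of mitosis and chromosome segregation, taken as a fixed list of symbols and matched to the gene identifiers of the deposited tables through release 29 of the GENCODE annotation. All 44 were found among the 58735 genes of the tables, and all 44 were among the 16528 genes with enough reads to be tested. The cells were U2OS, an established human osteosarcoma line. They had been transduced with lentivirus and selected with puromycin to carry either a control shRNA (control cells, shControl) or an shRNA against WSB2 (KD cells, shWSB2), a substrate receptor of a ubiquitin ligase. Each kind of cell was kept without stimulus or was given TNF-α, an inflammatory cytokine that signals through NF-κB, during 5 h. The 4 groups were therefore unstimulated control cells, unstimulated KD cells, TNF-α-stimulated control cells and TNF-α-stimulated KD cells, with 2 libraries of total RNA in each. The WSB2 shRNA used, the concentration of TNF-α and whether the cells of a kind were 1 clone are not given in the sources used here. The labels do not say that the 2 libraries of a group came from separate cultures, so that P-values measure only the spread between these libraries, which may be technical.

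Mitosis is run by a small set of kinases and by timed destruction of proteins. CDK1 with cyclin B starts chromosome condensation and spindle assembly, Aurora and Polo-like kinases act on centrosomes, spindle and kinetochores, and the spindle assembly checkpoint holds the anaphase-promoting complex until every chromosome is attached. Many of these genes are transcribed together late in the cell cycle, under the DREAM and MYB-MuvB complexes and FOXM1, through promoter elements known as CHR and CCAAT. In a growing culture of osteosarcoma cells, their RNA therefore comes mostly from the cells that are in G2 and mitosis.

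Promoters were looked at first, since the genes of the set are known to share elements there. Of the 44 genes, 38 had an entry in the RefSeq promoter table for GRCh38.p14, which runs from 250 bases before to 50 bases after the start of the gene. AURKA, BIRC5, KNTC1, TPX2, TTK and UBE2C had none. The core of the CHR, TTTGAA or TTCGAA on either strand, was found in 31 of the 38 promoters (81.6%) and in 19.5% of the promoters of all 27305 genes in the table. CCAAT on either strand was found in 28 of the 38 (73.7%) and in 39.7% of all. Both were found in 23 of the 38 (60.5%) and in 9.02% of all. These are matches of letters and not measured sites. The promoters below belong to the genes with the highest and the lowest difference between KD and control cells without TNF-α, and capitals mark the CHR core and CCAAT on either strand. Those of PLK1 and CDC20, whose transcripts were lower in unstimulated KD cells, and those of CENPF and KIF20B, whose transcripts were higher, all held both elements, and that of CENPE held neither in this window.
PLK1 (chr16:23678639-23678938, plus strand): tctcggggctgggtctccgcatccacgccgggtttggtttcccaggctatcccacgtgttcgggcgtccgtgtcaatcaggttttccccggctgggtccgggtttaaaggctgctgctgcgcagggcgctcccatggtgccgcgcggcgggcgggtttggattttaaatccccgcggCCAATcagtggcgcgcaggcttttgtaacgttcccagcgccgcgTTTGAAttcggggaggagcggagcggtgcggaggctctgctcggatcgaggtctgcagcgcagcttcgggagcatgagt
CDC20 (chr1:43358731-43359030, plus strand): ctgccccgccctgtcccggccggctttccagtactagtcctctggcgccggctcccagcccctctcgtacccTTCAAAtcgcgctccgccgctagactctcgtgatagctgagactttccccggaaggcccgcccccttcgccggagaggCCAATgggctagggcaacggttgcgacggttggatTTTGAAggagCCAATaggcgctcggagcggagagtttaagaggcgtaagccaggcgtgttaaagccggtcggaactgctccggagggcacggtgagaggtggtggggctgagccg
CENPF (chr1:214602945-214603244, plus strand): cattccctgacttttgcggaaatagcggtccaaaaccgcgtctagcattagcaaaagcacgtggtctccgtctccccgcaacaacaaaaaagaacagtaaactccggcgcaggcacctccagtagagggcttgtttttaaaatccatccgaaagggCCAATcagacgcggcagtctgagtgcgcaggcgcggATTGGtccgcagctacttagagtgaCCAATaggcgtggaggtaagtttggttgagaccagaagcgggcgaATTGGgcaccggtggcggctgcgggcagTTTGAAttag
CENPE (chr4:103198294-103198593, minus strand): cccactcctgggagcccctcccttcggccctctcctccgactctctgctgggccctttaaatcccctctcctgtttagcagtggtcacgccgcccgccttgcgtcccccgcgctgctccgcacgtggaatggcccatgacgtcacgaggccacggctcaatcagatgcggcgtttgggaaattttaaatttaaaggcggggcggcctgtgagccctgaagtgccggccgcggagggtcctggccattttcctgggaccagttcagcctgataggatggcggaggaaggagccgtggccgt
KIF20B (chr10:89701340-89701639, plus strand): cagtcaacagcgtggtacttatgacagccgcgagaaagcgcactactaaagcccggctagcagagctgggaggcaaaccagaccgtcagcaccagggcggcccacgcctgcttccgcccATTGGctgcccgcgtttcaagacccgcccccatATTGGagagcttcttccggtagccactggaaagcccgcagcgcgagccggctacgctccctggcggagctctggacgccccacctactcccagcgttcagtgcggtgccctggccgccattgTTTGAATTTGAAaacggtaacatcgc

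The transcripts of the same genes differ in base composition, which is shown because it moved with the measurements below. Over the exons, the GC content of the 44 genes ran from 34.1% to 57.6% with a median of 40.9%, and exon length ran from 1286 to 12807 bases with a median of 4623.5 bases. The median over 16520 tested genes was 48.5% GC and 4532.5 bases. For each of 4 genes, chosen after the values were seen, 1 stretch of 90 coding bases is given from the GENCODE transcript on GRCh38. It is the first stretch in frame and within 1 exon whose GC content is nearest to that of the whole coding sequence, and capitals mark G and C. The coding sequences of PLK1 and CDC20 held 57.4% and 57.5% GC over 1809 and 1497 bases. Those of CENPF and CENPE were longer, 9342 and 8103 bases, and held 41.0% and 35.3% GC.
PLK1 (chr16:23679122-23679211, plus strand): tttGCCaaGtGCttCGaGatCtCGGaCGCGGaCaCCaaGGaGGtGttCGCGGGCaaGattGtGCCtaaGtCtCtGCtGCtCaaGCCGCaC
CDC20 (chr1:43359492-43359581, plus strand): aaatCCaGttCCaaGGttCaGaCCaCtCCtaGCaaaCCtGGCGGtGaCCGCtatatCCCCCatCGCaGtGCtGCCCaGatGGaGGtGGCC
CENPF (chr1:214614901-214614990, plus strand): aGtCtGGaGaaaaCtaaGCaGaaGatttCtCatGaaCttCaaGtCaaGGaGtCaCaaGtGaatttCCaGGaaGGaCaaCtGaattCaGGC
CENPE (chr4:103195920-103196009, minus strand): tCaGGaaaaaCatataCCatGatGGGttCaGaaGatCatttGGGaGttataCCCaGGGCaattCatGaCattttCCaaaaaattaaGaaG

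Values are FPKM, fragments scaled to exon length and library size. Comparisons between libraries depended on that size and on the GC content of the gene, as described below. Whole reads could be recovered from them, 15601098 to 18677023 per library. A gene of the set had between 274 reads (PRC1) and 78192 reads (CDC20) over the 8 libraries, with a median of 13384, and at least 20 reads in every library. The 2 unstimulated KD libraries stood apart from the other 6. Their share of mitochondrial reads was 4.10% and 4.42%, against 1.11% to 2.03% elsewhere, the read-weighted mean GC content was 49.5% and 49.95% against 52.6% to 53.3%, and 26225 and 26397 genes had a read against 22072 to 22957. The library size behind the authors' FPKM was 1.21 times the reads in both and 0.925 to 1.03 times in the other 6. Every comparison of unstimulated KD cells rests on these 2 libraries, and none of it can be given without them.

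WSB2 itself checked the labels. It was measured at 27.7 and 28.0 FPKM in the unstimulated control libraries and at 8.38 and 8.52 in the KD libraries without TNF-α. With TNF-α, control cells had 24.995 and 25.3 FPKM and KD cells 9.002 and 9.18. No KD library reached the level of a control library, with log2 differences of -1.61 (SE 0.0685, adjusted p = 0.000119 from limma) and -1.37 (SE 0.0685, adjusted p = 0.00113 from limma). Of the osteoblast lineage markers, COL1A1 and SPARC were high, at 172 FPKM or more, 4 of the 6 were at 1 FPKM or more in every library, and COL1A2 was under 0.1 FPKM in all. The 3 epithelial, 3 leukocyte and 3 endothelial markers were under 1 FPKM in every library, and CD68 was at 0. Over the 8 libraries, the summed level ran from 393 to 537 FPKM for the osteoblast lineage markers, with 393 and 403 in the unstimulated KD libraries and 509.7 or more in the others.

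The first question was how the genes of mitosis differed between KD and control cells that had not been stimulated. Genes of the set differed in both directions. By limma, at an adjusted p under 0.05, 28 of the 44 genes had a higher and 12 a lower level in KD than in control cells, against 29.8% higher and 30.2% lower among all genes tested. The share of lower genes was thus near that of all genes, and only the share of higher genes exceeded it. The median log2 difference of the 44 was 1.02 and that of all genes was -0.00. The differences ran from -1.05 for PLK1 to 2.63 for CENPF, 22 of the 28 higher genes differed by more than 1 on the log2 scale and 10 by more than 2, and 16 of the 44 were among the 165 genes that make up the top 1% of all genes by log2 difference. Among the called genes the SE was 0.0751 to 0.213 and the highest adjusted p was 0.0409 for a higher and 0.0459 for a lower gene. The counts depended on the scaling. When each library was scaled to its total reads, the median of all genes moved to 0.13, 31 genes were higher and 7 lower, and AURKA (0.06), KIF20A (0.03) and NCAPD2 (2.24e-04) were no longer below 0, while CENPA (-0.13) and KIF2C (-0.12) stayed below 0 without a call. With upper-quartile factors the median of all genes moved to -0.12, 26 were higher and 14 lower, and KIF4A (-0.02) was no longer above 0. The shares of all genes called under these 2 scalings are not given, so that the counts show only how the calls of the set moved. The RNA was from bulk cultures, in which more cells in a phase of the cycle and more RNA per cell cannot be told apart.

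**Figure D1:**
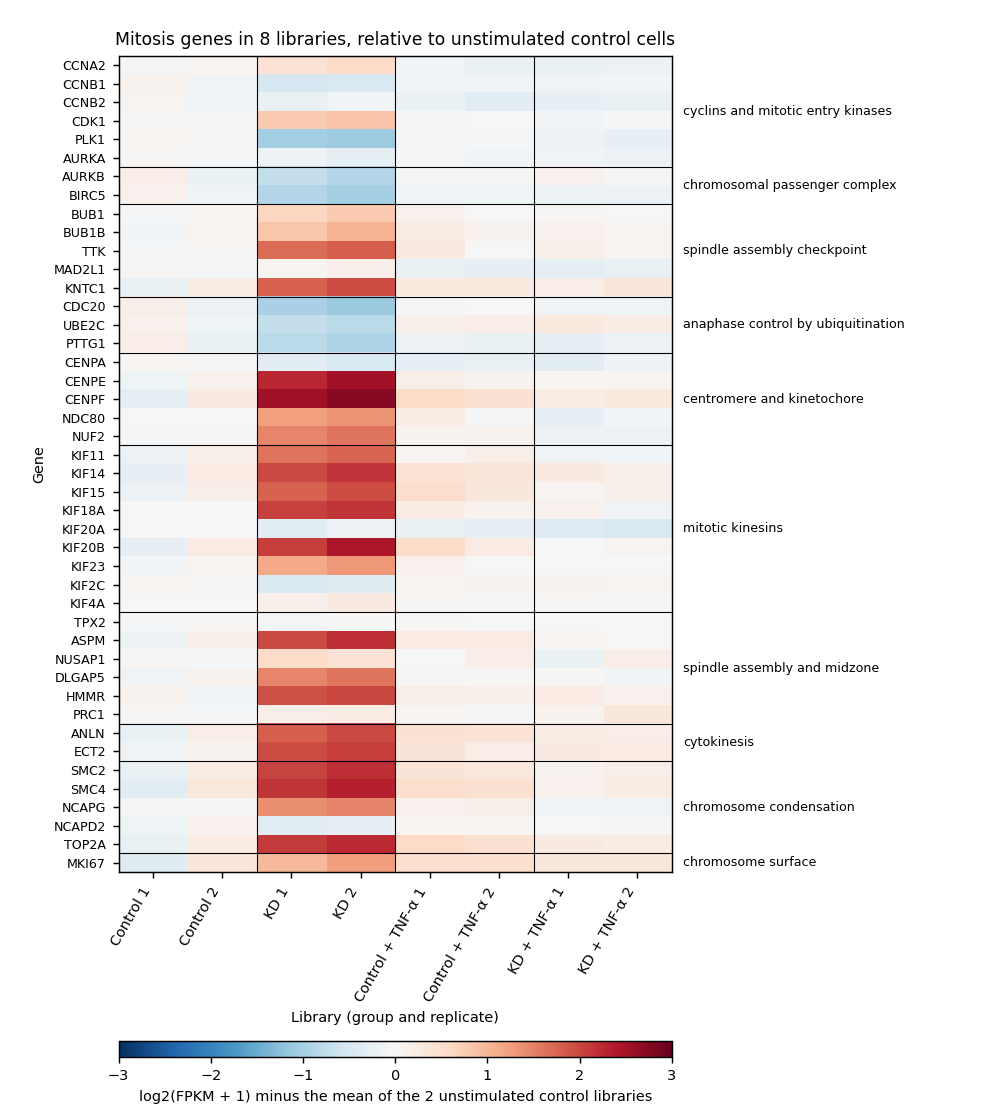
Difference of log2(FPKM + 1) from the mean of the 2 unstimulated control libraries for the 44 genes, grouped by role (rows), in each of the 8 libraries (columns). Both unstimulated KD libraries are dark red for CENPF and CENPE and blue for PLK1 and CDC20, and the 4 TNF-α-stimulated libraries stay pale.

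The summed level of the set did not show these differences. The 44 genes together amounted to 1640 and 1705 FPKM in the unstimulated KD libraries and to 1599 to 1755 in the other 6. As reads, which count long genes more, they took 0.849% and 0.917% of the unstimulated KD libraries and 0.501% to 0.567% of the other 6.

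Among the cyclins and the kinases of mitotic entry, partners of 1 complex differed in opposite directions as deposited, but the call of CDK1 ended at 0.13 (adjusted p = 0.163 from limma) when libraries were corrected for GC content and exon length. CDK1, the kinase of mitotic entry (3931 bases, 34.8% GC), was higher, at 48.7 and 51.7 FPKM in the unstimulated KD libraries and 26.2 to 28.8 in the other 6, a log2 difference from unstimulated control cells of 0.82 (SE 0.0797, adjusted p = 0.000201 from limma). Its partner cyclin B1, CCNB1 (2558 bases, 44.3% GC), was lower, at 107 and 109.6 against 140.3 to 164 FPKM in the other 6 and with a difference of -0.48 (SE 0.0950, adjusted p = 0.00309 from limma). Cyclin A2, CCNA2 (2798 bases, 42.1% GC), was higher by 0.51, with 66.1 and 74.8 FPKM in KD against 47.1 and 50.9 in control cells. Cyclin B2, CCNB2 (2801 bases, 45.7% GC), was at 45.2 and 40.6 FPKM in control and 36.3 and 39.5 in KD cells, and was not called (-0.17, adjusted p = 0.127 from limma). With upper-quartile factors CCNB2 was called lower (-0.41, adjusted p = 0.00965 from limma). The 2 kinases that act on centrosomes and spindle poles were lower, AURKA not under every setting. PLK1 (ENSG00000166851, chromosome 16 from 23677656 to 23690367, plus strand; 4760 bases, 57.1% GC) was at 61.1 and 56.4 FPKM in unstimulated control and 28.3 and 27.3 in unstimulated KD cells, and at 55.9 and 57.3 in control and 52.5 and 49.4 in KD cells after TNF-α. The unstimulated KD libraries were thus the only low ones, with a difference of -1.05 (SE 0.0767, adjusted p = 0.000124 from limma). AURKA (2928 bases, 47.4% GC) differed by -0.21, with 47.3 and 44.02 FPKM in KD against 54.1 and 52.1 in control cells, and was not called with libraries scaled to total reads (0.06) or after the correction (-0.12).

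**Figure D2:**
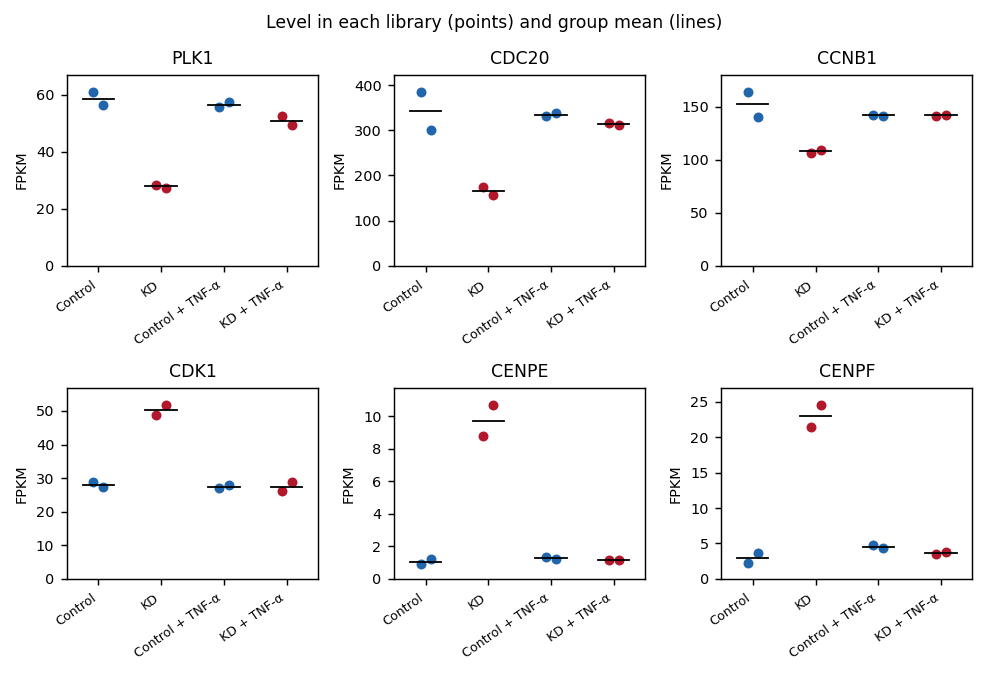
FPKM of 6 genes in each library (points, blue for control and red for KD cells), with the mean of the 2 libraries as a line and each axis starting at 0. PLK1, CDC20 and CCNB1 are lowest, and CDK1, CENPE and CENPF highest, in unstimulated KD cells.

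The chromosomal passenger complex, which corrects faulty attachments and later drives cytokinesis, was represented by its kinase and by survivin, and both were lower. AURKB (ENSG00000178999, chromosome 17 from 8204733 to 8210600, minus strand; 2241 bases, 55.7% GC), the Aurora B kinase, was at 45.3 and 33.8 FPKM in unstimulated control and 23.3 and 20.8 in unstimulated KD cells, and at 38.2 and 39.9 in control and 42.6 and 40.2 in KD cells after TNF-α. BIRC5 (ENSG00000089685, chromosome 17 from 78214186 to 78225636, plus strand; 3815 bases, 50.6% GC), the gene of survivin, was at 114 and 96.0 FPKM (control) and 56.7 and 51.9 (KD) without TNF-α and at 98.2 and 95.9 (control) and 93.7 and 92.2 (KD) with it. In both, the unstimulated KD libraries lay below all of the other 6. The differences without TNF-α were -0.80 (SE 0.133, adjusted p = 0.00138 from limma) and -0.94 (SE 0.0997, adjusted p = 0.000254 from limma).

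Of the 5 genes of the spindle assembly checkpoint, 4 were higher and none lower, and MAD2L1 was not called. KNTC1, a part of the complex that recruits dynein and checkpoint proteins to kinetochores (11325 bases, 40.8% GC), differed most, by 1.86, with 7.46 and 8.57 FPKM in KD against 1.12 and 1.91 in control cells. The kinase TTK (4579 bases, 41.0% GC) was higher by 1.74, at 9.63 and 10.8 against 2.29 and 2.41 FPKM. BUB1B (4476 bases, 43.3% GC), the gene of BUBR1, was higher by 0.94 and BUB1, a kinetochore kinase (6032 bases, 40.6% GC), by 0.71, the latter not called after the correction (0.16, adjusted p = 0.0510 from limma). MAD2L1 (5748 bases, 39.0% GC), the gene of MAD2, which binds CDC20 and so holds back the anaphase-promoting complex, was at 14.4 and 13.5 FPKM in unstimulated control and 14.8 and 15.7 in unstimulated KD cells. With TNF-α, control cells had 11.8 and 11.6 and KD cells 11.4 and 11.8 FPKM. Its difference without TNF-α was 0.12 (SE 0.0768, adjusted p = 0.205 from limma). MAD2L1 was called higher with libraries scaled to total reads (0.39) and lower after the correction (-0.51).

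The 3 genes grouped here under anaphase control by ubiquitination, CDC20, PTTG1 and UBE2C, were all lower. CDC20 (ENSG00000117399, chromosome 1 from 43358955 to 43363203, plus strand; 2038 bases, 57.6% GC), the activator of the anaphase-promoting complex and the most abundant transcript of the set by reads, was at 386 and 302 FPKM in unstimulated control and 173 and 156 in unstimulated KD cells. It was at 332 and 338 in control and 317 and 313 in KD cells after TNF-α, and its difference without TNF-α was -1.05 (SE 0.133, adjusted p = 0.000437 from limma). PTTG1 (ENSG00000164611, chromosome 5 from 160421822 to 160428744, plus strand; 2013 bases, 44.7% GC), the gene of securin, the inhibitor of separase, was at 117 and 87.2 FPKM (control) and 57.0 and 52.3 (KD) without TNF-α and at 89.8 and 86.6 (control) and 83.8 and 88.8 (KD) with it, a difference of -0.88 (SE 0.134, adjusted p = 0.000937 from limma) without TNF-α. UBE2C (1286 bases, 53.5% GC), the ubiquitin-conjugating enzyme of the complex, was at 178 and 147 FPKM (control) and 98.8 and 91.5 (KD) without TNF-α and 183 and 187 (control) and 197 and 189 (KD) with it. For all 3 genes the unstimulated KD libraries were the lowest, and UBE2C differed by -0.76 (SE 0.110, adjusted p = 0.000731 from limma).

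At the centromere and kinetochore, 4 of the 5 genes were higher and CENPA was lower. CENPF (ENSG00000117724, chromosome 1 from 214603195 to 214664588, plus strand; 11690 bases, 40.2% GC), a large coiled-coil protein of the outer kinetochore, was at 2.22 and 3.66 FPKM in unstimulated control and 21.4 and 24.5 in unstimulated KD cells, and at 4.74 and 4.35 in control and 3.54 and 3.81 in KD cells after TNF-α. CENPE (ENSG00000138778, chromosome 4 from 103105806 to 103198409, minus strand; 9444 bases, 34.7% GC), the kinesin that carries chromosomes to the equator, was at 0.890 and 1.22 FPKM (control) and 8.78 and 10.7 (KD) without TNF-α and at 1.32 and 1.21 (control) and 1.14 and 1.15 (KD) with it. The unstimulated KD libraries were several-fold above every other library in both genes. The log2 differences were 2.63 (SE 0.169, adjusted p = 0.000119 from limma) and 2.38 (SE 0.130, adjusted p = 0.000119 from limma), and the ratios of the mean FPKM, which no added 1 dampens, were 7.82 and 9.21. NDC80 (3600 bases, 39.8% GC) and NUF2 (3362 bases, 37.2% GC), a pair that binds microtubules in the complex named after the former, were higher by 1.29 and 1.54. NUF2 was at 4.42 and 4.61 FPKM in unstimulated control, 14.3 and 15.8 in unstimulated KD, 4.93 and 4.90 in stimulated control and 3.89 and 3.91 in stimulated KD cells. CENPA (1983 bases, 48.8% GC), the histone variant that marks the centromere, was at 37.7 and 34.2 FPKM (control), 28.2 and 25.8 (KD), 29.4 and 30.7 (control with TNF-α) and 28.9 and 32.4 (KD with TNF-α), a difference of -0.40 (SE 0.0913, adjusted p = 0.00618 from limma) without TNF-α. CENPA was not called with libraries scaled to total reads (-0.13, adjusted p = 0.218 from limma).

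Of the 9 mitotic kinesins, motors that slide or shorten spindle microtubules or carry cargo along them, 7 were higher and 2 lower. KIF20B (ENSG00000138182, chromosome 10 from 89701610 to 89774939, plus strand; 6851 bases, 34.1% GC), a cytokinesis motor, was at 0.584 and 1.25 FPKM in unstimulated control and 6.94 and 9.16 in unstimulated KD cells, and at 1.74 and 1.23 in control and 0.904 and 0.988 in KD cells after TNF-α. KIF18A (4668 bases, 37.3% GC), which dampens chromosome movements, was at 2.04 and 2.00 FPKM (control) and 11.5 and 12.3 (KD) without TNF-α and 2.52 and 2.25 (control) and 2.33 and 1.83 (KD) with it. KIF15 (5285 bases, 41.2% GC), which helps hold the spindle poles apart, was at 1.60 and 2.27 FPKM (control) and 8.99 and 10.3 (KD) without TNF-α and 3.21 and 2.67 (control) and 2.11 and 2.24 (KD) with it. All 3 were highest in the unstimulated KD libraries, with differences of 2.25 (SE 0.199), 2.09 (SE 0.115) and 1.87 (SE 0.143). KIF14 (7277 bases, 38.3% GC), a midbody motor, differed by 2.07, KIF11 (4860 bases, 38.3% GC), the motor of spindle bipolarity, by 1.69, and KIF23 (6576 bases, 40.2% GC), a part of centralspindlin, by 1.22. KIF4A (4533 bases, 46.7% GC), a chromokinesin, differed by 0.21 with 30.6 and 33.4 against 27.6 and 27.3 FPKM and was not called with upper-quartile factors (-0.02). The lower kinesins were KIF2C (3646 bases, 51.3% GC), which depolymerizes microtubules at centromeres (-0.40), and KIF20A (3958 bases, 48.5% GC), which works at the central spindle (-0.24). KIF20A was at 34.3 and 33.8 FPKM in unstimulated control, 27.3 and 30.1 in unstimulated KD, 29.6 and 27.8 in stimulated control and 25.6 and 24.6 in stimulated KD cells, so that its unstimulated KD level lay within the range of the stimulated libraries or above it. Neither lower kinesin was called with libraries scaled to total reads (KIF2C -0.12, KIF20A 0.03) or after the correction.

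Among the 6 genes of spindle assembly and the midzone, 4 were higher, none was lower, and TPX2 and PRC1 were not called. ASPM (10887 bases, 37.1% GC), which acts at spindle poles, was higher by 2.10, at 5.69 and 6.83 FPKM against 0.515 and 0.886 in control cells. HMMR (3936 bases, 37.6% GC), a microtubule-binding protein of the spindle, was at 2.66 and 2.11 FPKM in unstimulated control, 11.7 and 12.6 in unstimulated KD, 2.81 and 2.73 in stimulated control and 3.03 and 2.72 in stimulated KD cells, a difference of 1.96 (SE 0.114, adjusted p = 0.000119 from limma) without TNF-α. DLGAP5 (3667 bases, 38.2% GC), which stabilizes kinetochore fibres, was higher by 1.54, and NUSAP1 (2875 bases, 43.7% GC) by 0.50, the latter not called after the correction (0.33, adjusted p = 0.0934 from limma) or with upper-quartile factors (0.30). TPX2 (3605 bases, 46.8% GC), the activator of Aurora A on spindle microtubules, was at 78.5 and 83.4 FPKM in control and 78.7 and 82.5 in KD cells, a difference of -0.01 (95% interval -0.18 to 0.17). That interval does not cover the scaling. TPX2 was called higher with libraries scaled to total reads (0.27, adjusted p = 0.0219 from limma) and lower with upper-quartile factors. PRC1 (5525 bases, 47.1% GC), the bundler of midzone microtubules, was at 0.290 and 0.230 FPKM in unstimulated control, 0.420 and 0.459 in unstimulated KD, 0.307 and 0.235 in stimulated control and 0.346 and 0.607 in stimulated KD cells. PRC1 and NUSAP1 are uncertain, since 58.4% and 62.2% of their exon bases are also exon bases of another annotated gene, most of them on the same strand, and how the counting treated such reads is not given in the sources used here. The next highest shares among the 44 were 33.1% for NCAPG and 25.6% for SMC4, both with a gene on the opposite strand, and 26 of the 44 shared none.

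Both genes of cytokinesis were higher. ANLN (6012 bases, 40.3% GC), the gene of anillin, a scaffold of the contractile ring, was at 63.3 and 72.9 FPKM in KD against 15.3 and 20.4 in control cells, and ECT2 (5499 bases, 37.7% GC), which activates RhoA at the cell equator, at 21.3 and 23.5 against 4.37 and 5.21. The differences were 1.89 (SE 0.131, adjusted p = 0.000119 from limma) and 2.02 (SE 0.109, adjusted p = 0.000119 from limma).

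In chromosome condensation, 4 of the 5 genes were higher and 1 was lower. SMC4 (ENSG00000113810, chromosome 3 from 160399274 to 160434962, plus strand; 8457 bases, 38.9% GC) and SMC2 (6468 bases, 38.1% GC) form the core of both condensins. SMC4 was at 3.94 and 6.59 FPKM in unstimulated control and 26.2 and 29.7 in unstimulated KD cells, and at 7.77 and 7.37 in control and 5.65 and 6.19 in KD cells after TNF-α. Topoisomerase II alpha, TOP2A (ENSG00000131747, chromosome 17 from 40388516 to 40417950, minus strand; 6437 bases, 38.9% GC), was at 20.7 and 28.3 FPKM (control) and 106 and 118 (KD) without TNF-α and 37.0 and 33.8 (control) and 29.2 and 28.4 (KD) with it. For both, the unstimulated KD libraries were far above all of the other 6. The differences were 2.24 (SE 0.183, adjusted p = 0.000147 from limma) for SMC4, 2.16 (SE 0.138, adjusted p = 0.000119 from limma) for TOP2A and 2.12 for SMC2. The condensin I subunits differed in direction, NCAPG (4921 bases, 38.6% GC) by 1.45 and NCAPD2 (6487 bases, 51.9% GC) by -0.28, with 73.9 and 77.8 FPKM of NCAPD2 in KD against 83.6 and 102 in control cells. NCAPD2 was not called with libraries scaled to total reads or after the correction. MKI67 (12807 bases, 48.1% GC), the gene of Ki-67, which coats the surface of mitotic chromosomes and is used as a marker of proliferation, was at 13.9 and 23.98 FPKM in unstimulated control and 36.9 and 44.9 in unstimulated KD cells. It was at 26.4 and 26.0 in control and 23.3 and 23.3 in KD cells after TNF-α, and its unstimulated control libraries differed from each other more than those of the other groups. Its difference without TNF-α was 1.11 (SE 0.213, adjusted p = 0.00276 from limma).

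**Figure D3:**
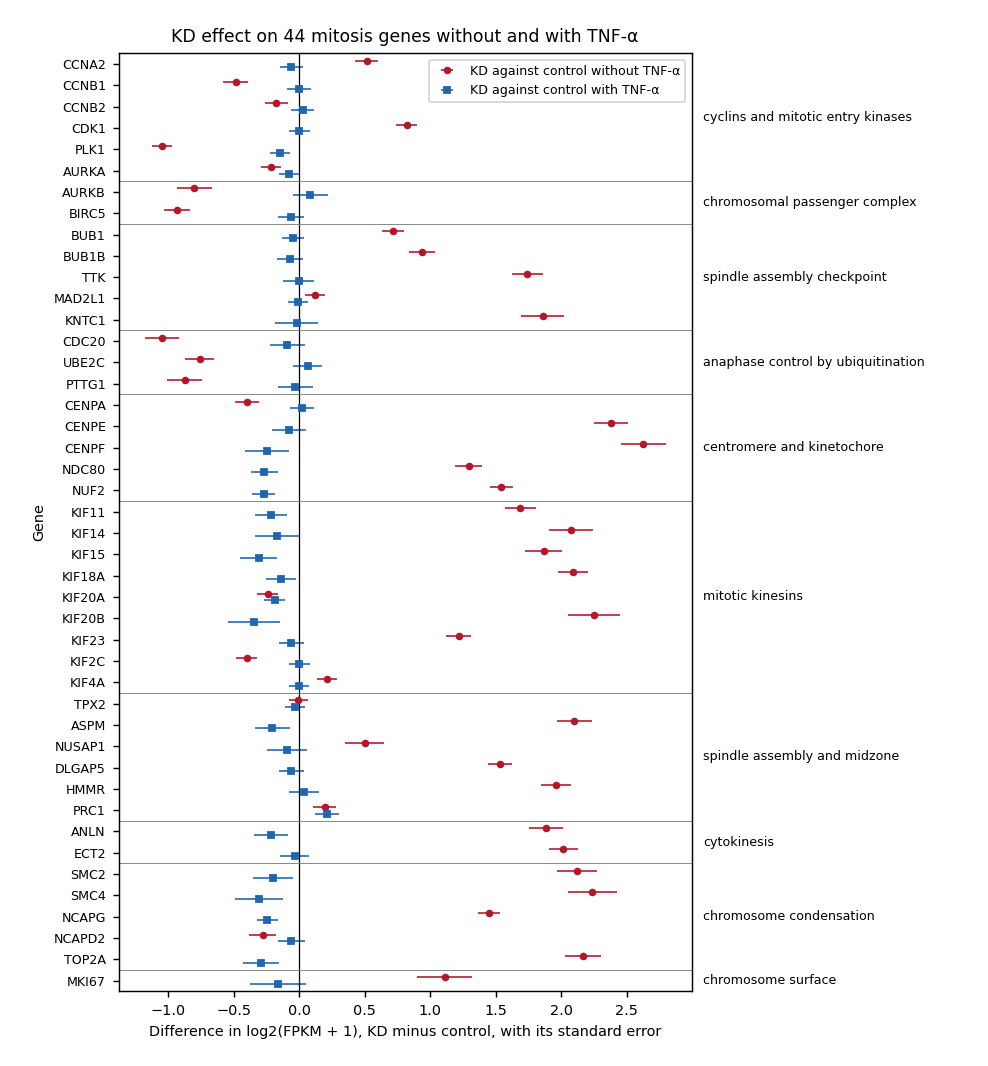
Difference in log2(FPKM + 1) between KD and control cells (points, with bars of 1 standard error from the fit) for the 44 genes, without TNF-α (red circles) and with TNF-α (blue squares). Without TNF-α the values run from -1.05 to 2.63, and with TNF-α from -0.35 to 0.21.

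Beside each change stood the composition of the gene. The 28 genes that were higher held 34.1% to 48.1% GC (median 38.9%) over a median of 5392 exon bases, and the 12 that were lower held 44.3% to 57.6% (median 51.0%) over a median of 2743 bases. Across the 44 genes, which are not independent replicates and share all libraries, the log2 difference had a Spearman correlation of -0.84 with GC content and of 0.69 with exon length. Across 16520 tested genes of any function it was -0.69 with GC content and 0.28 with length. Within bands of similar GC content the genes of the set could be set beside all others. Between 30% and 35% GC, 170 genes had a median of 0.70 and 3 genes of the set a median of 2.25, with 2 of them above the upper quartile. Between 35% and 40% GC, the 2092 tested genes had a median of 0.65 (quartiles 0.29 and 1.07) and the 14 genes of the set a median of 1.99, with 13 of them above the upper quartile. MAD2L1 was the one below it, and also lay below the lower quartile. Between 40% and 45%, the median was 0.31 for 3629 genes and 1.08 for 12 genes of the set, of which 8 were above the upper and 2, CCNB1 and PTTG1, below the lower quartile. Between 45% and 50%, most genes of the set lay among the others, with a median of -0.09 for 8 genes of the set against 0.04 for 3155 genes (quartiles -0.22 and 0.28), 1 above the upper and 2 below the lower quartile. Between 50% and 55%, the median was -0.21 for 2734 genes and -0.58 for 4 genes of the set, 2 of them below the lower quartile. Between 55% and 60%, the median was -0.42 for 2546 genes and -1.05 for 3 genes of the set, PLK1, CDC20 and AURKB, all of them below the lower quartile. The same 2 libraries also differed from the rest in mitochondrial reads and in GC content, and the part of either in these differences was not tested beyond the correction described next.

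**Figure D4:**
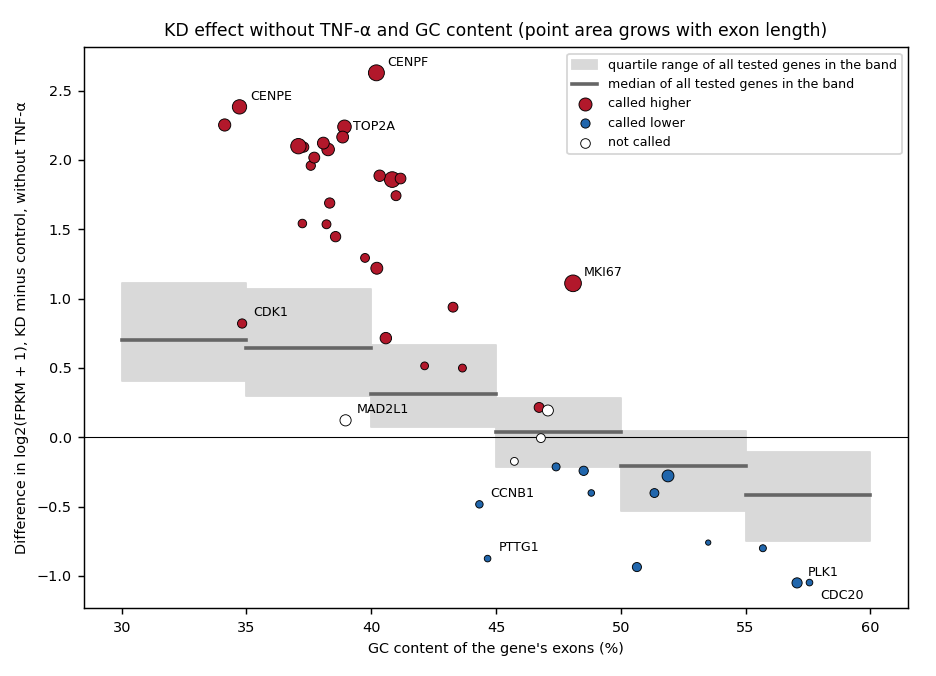
Difference in log2(FPKM + 1) between KD and control cells without TNF-α against the GC content of the exons (%) for the 44 genes, with point area growing with exon length, and the median (line) and quartile range (grey) of all tested genes in bands of 5%. Most of the genes called higher lie above the grey band at 35% to 45% GC, and PLK1 and CDC20 lie below it at 55% to 60%.

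A correction of each library for a smooth trend on GC content and exon length made most differences smaller. After it, 25 of the 44 genes were higher and 9 lower, against 23.7% higher and 28.1% lower among the 16520 genes with a GC content, and the median of the 44 was 0.64. The share of lower genes did not exceed that of all genes. All 28 higher genes and 10 of the 12 lower genes had a smaller difference than before. CENPF stayed the highest at 1.92 (adjusted p = 0.000242 from limma), followed by SMC4 at 1.505, TOP2A at 1.49 and CENPE at 1.47. CDK1 (0.13), BUB1 (0.16), NUSAP1 (0.33), AURKA (-0.12), KIF20A (-0.13), KIF2C (-0.15) and NCAPD2 (-0.14) were no longer called. Among the lower genes, PTTG1 (-0.96) and CCNB1 (-0.60) differed slightly more than before, PLK1 was at -0.63, BIRC5 at -0.72, CDC20 at -0.52, UBE2C at -0.40, AURKB at -0.34 and CENPA at -0.23. MAD2L1, not called before, was lower at -0.51 (adjusted p = 0.00150 from limma). With libraries scaled to total reads it was called higher instead, at 0.39 (adjusted p = 0.00302 from limma), so that its direction depended on the processing. The corrected differences of the 44 genes still had a Spearman correlation of -0.74 with GC content. Over all genes it was 0.00, a value largely fixed in advance, since the correction was fitted to those genes.

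**Figure D5:**
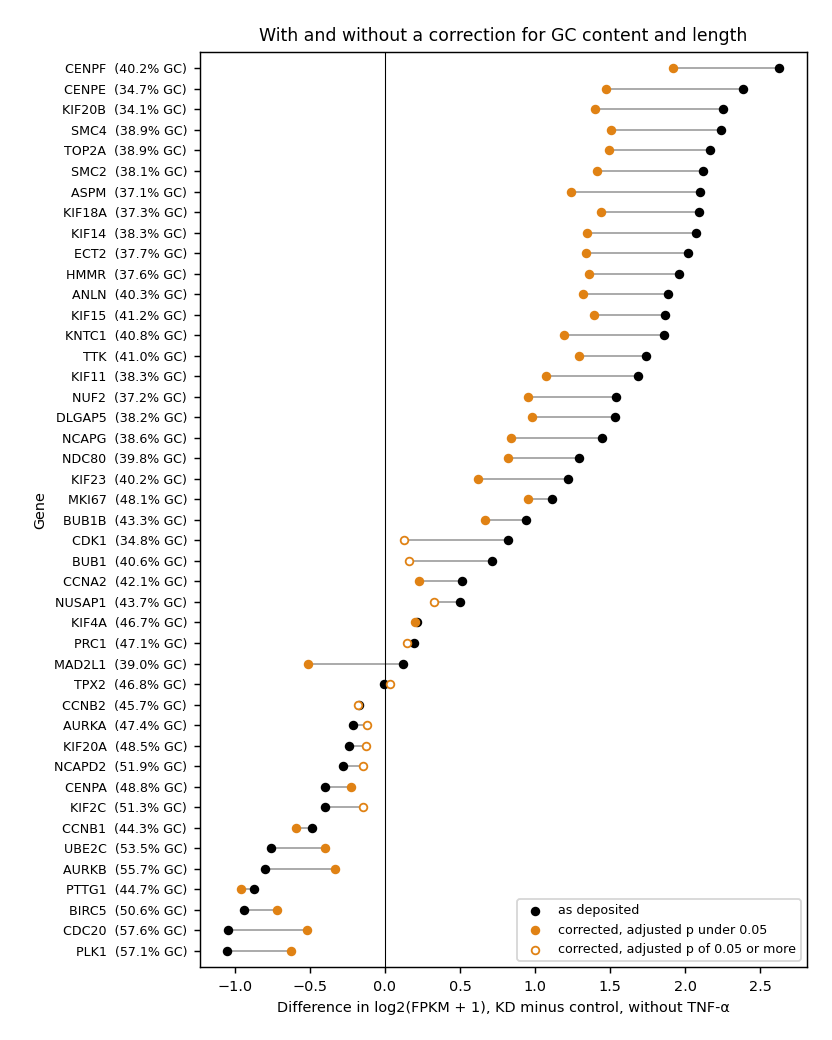
Difference in log2(FPKM + 1) between KD and control cells without TNF-α for the 44 genes, ordered by it and labelled with GC content, as deposited (black) and after a correction for GC content and exon length (orange, open where the adjusted p was 0.05 or more). All genes called higher move towards 0, and CENPF stays highest at 1.92.

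In cells stimulated with TNF-α, no gene of the set passed the threshold between KD and control cells. None of the 44 was called by limma or by a voom fit of the recovered reads, against 0.0605% higher and 0.0545% lower among all genes tested by limma. At an unadjusted p under 0.05 from limma there were 5 of the 44, and the share of all genes at that threshold is not given. The differences ran from -0.35 for KIF20B to 0.21 for PRC1 with a median of -0.07, and 36 of the 44 were below 0. Those of KIF15 (-0.31), SMC4 (-0.31), TOP2A (-0.29) and NUF2 (-0.27) were the next lowest, and those of AURKB (0.08), UBE2C (0.06), HMMR (0.04) and CCNB2 (0.02) the next highest. The lowest adjusted p was 0.434, for NUF2, whose KD libraries both lay below its control libraries. CCNB2 was at 37.4 and 33.8 FPKM in stimulated control and 36.0 and 36.4 in stimulated KD cells, and CDK1 at 27.0 and 27.9 and 26.2 and 28.8, with overlapping libraries. Over the 44 genes the 95% intervals reached from -0.81 to 0.42, so that differences of the size seen without TNF-α for CENPF, CENPE or TOP2A lay outside them. For CENPE the interval was -0.38 to 0.23, and for PLK1 -0.33 to 0.03. These intervals use a spread pooled over all 4 groups, of which the unstimulated control libraries were the least alike. A fit without the unstimulated KD libraries called none of the 44 either, against 0.0424% of all genes. A fit on only the libraries compared also called none, against 0.236% of all genes.

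TNF-α in control cells moved no gene of the set past the threshold, against 3.10% of all genes higher and 1.14% lower. At an unadjusted p under 0.05 from limma there were 11 of the 44, and the share of all genes at that threshold is not given. The median difference was 0.10. TOP2A (0.53, SE 0.138, adjusted p = 0.0870 from limma), CENPF (0.52), MKI67 (0.49), SMC4 (0.48) and KIF15 (0.43) were the highest. CCNB2 (-0.26), CENPA (-0.25), KIF20A (-0.24), MAD2L1 (-0.24) and PTTG1 (-0.19) were the lowest. TOP2A was called in the voom fit and after the correction for GC content and length. Further calls appeared when 1 library was left out. Without replicate 2 of the unstimulated control cells, 9 genes were higher (KNTC1, CENPF, KIF14, KIF15, ANLN, SMC2, SMC4, TOP2A and MKI67) and 2 were lower (CCNB2 and PTTG1), against 12.9% of all genes called in that fit. These 2 libraries were the least alike of any pair, with a variance over genes of 33.0 times counting noise against 2.49 to 7.23 times in the other groups.

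In KD cells, TNF-α went with 8 genes higher and 29 lower, against 31.1% and 31.4% of all genes, with a median of -0.84. CENPF (-2.36), CENPE (-2.32), KIF20B (-2.21), KIF18A (-2.07) and SMC4 (-2.06) were the lowest, and UBE2C (1.02), CDC20 (0.93), AURKB (0.88), PLK1 (0.85) and BIRC5 (0.77) the highest. Of these calls, CDK1, BUB1 and NUSAP1 were lost after the correction, CCNB1, PTTG1 and KIF2C with total-read scaling, and MAD2L1, KIF4A and NUSAP1 with upper-quartile factors. The difference in the KD effect between stimulated and unstimulated cells was called for 35 of the 44 genes, 9 above 0 and 26 below, against 23.8% and 22.3% of all genes, with a median of -1.14. Of the 35, CDK1 (-0.12, adjusted p = 0.370 from limma), BUB1 (-0.20), CCNA2 (-0.28), CENPA (0.24) and KIF2C (0.13) lost the call after the correction, CCNB1 (0.18), CENPA (0.13) and KIF2C (0.11) with total-read scaling, and CCNA2 (-0.33) with upper-quartile factors. It was lowest for CENPF (-2.87, SE 0.238, adjusted p = 0.00103 from limma), KIF20B (-2.60), SMC4 (-2.55), CENPE (-2.46) and TOP2A (-2.45) and highest for CDC20 (0.96, SE 0.187, adjusted p = 0.00542 from limma), PLK1 (0.90), AURKB (0.88), BIRC5 (0.88) and PTTG1 (0.84). Both results use the unstimulated KD libraries, as does the comparison without TNF-α, and are no independent evidence of it. The 2 TNF-α-stimulated KD libraries lay close to both groups of control cells for most genes, as the levels above show for PLK1, CDC20, CENPE and CENPF.

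The regulators of these genes were measured in the same libraries. MYBL2 (2777 bases, 60.6% GC), the B-MYB subunit of the activating complex, was at 367 and 304 FPKM in unstimulated control, 159 and 147 in unstimulated KD, 359 and 385 in stimulated control and 342 and 347 in stimulated KD cells, the lowest of 23 cell cycle transcription regulators with a difference of -1.12 (limma, adjusted p = 0.000252) before and -0.52 after the correction. FOXM1 (4899 bases, 53.2% GC), the forkhead activator of mitotic genes, was at 65.0 and 74.6 FPKM (control), 54.7 and 57.5 (KD), 71.7 and 72.1 (control with TNF-α) and 75.5 and 74.0 (KD with TNF-α), lower by -0.31 (adjusted p = 0.0160 from limma) but at -0.04 (adjusted p = 0.688 from limma) after the correction and at -0.03 (adjusted p = 0.815 from limma) with total-read scaling. LIN9 (4442 bases, 43.7% GC), a subunit of the MuvB core, was at 2.43 and 2.26 FPKM (control), 4.04 and 4.06 (KD), 2.31 and 1.94 (control with TNF-α) and 2.18 and 1.74 (KD with TNF-α), higher by 0.59 (adjusted p = 0.00329 from limma) without TNF-α. RB1 (6452 bases, 37.0% GC), the retinoblastoma repressor of E2F targets, was the highest of the 23 at 1.49, with 2.16 and 3.04 FPKM (control), 8.16 and 9.92 (KD), 3.21 and 3.24 (control with TNF-α) and 3.09 and 3.21 (KD with TNF-α). In all, 11 of the 23 were higher and 6 lower without TNF-α, against 29.8% and 30.2% of all genes, with a median of 0.33 on genes of 45.1% GC in the median.

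Other genes of mitosis had a median near that of all genes. Among 59 of them, 22 were higher and 21 lower without TNF-α, against 29.8% and 30.2% of all genes, with a median of 0.05 (0.32 with total-read scaling and -0.19 with upper-quartile factors) and a median GC content of 45.1%. KNL1 (10250 bases, 37.5% GC), the kinetochore scaffold, was the highest at 2.33, with 1.21 and 2.35 FPKM in unstimulated control, 11.5 and 13.99 in unstimulated KD, 2.18 and 1.88 in stimulated control and 1.87 and 1.87 in stimulated KD cells. CENPM (1778 bases, 58.8% GC), of the inner kinetochore, was the lowest at -1.19, with 63.3 and 43.4 FPKM (control), 23.2 and 21.6 (KD), 49.0 and 49.6 (control with TNF-α) and 43.1 and 43.9 (KD with TNF-α). After the correction for GC content and length the counts were 22 higher and 19 lower, against 23.7% and 28.1% of all genes, and the median 0.04, beside 0.64 in the set. No test was made between the lists.

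Cohesin holds sister chromatids together. Of 10 genes of cohesin, its loaders and its regulators WAPL, PDS5A and PDS5B, 9 were higher without TNF-α and none was lower, against 29.8% and 30.2% of all genes. Their median was 1.40 (0.69 after the correction) on genes of 39.7% GC in the median. SMC3 (4275 bases, 39.7% GC), a core subunit, was the highest at 2.28, with 6.16 and 7.30 FPKM in unstimulated control, 34.8 and 38.4 in unstimulated KD, 9.33 and 7.71 in stimulated control and 6.54 and 7.86 in stimulated KD cells. MAU2 (11145 bases, 57.5% GC), of the loader, was at 2.30 and 2.72 FPKM (control), 2.20 and 2.30 (KD), 2.42 and 2.39 (control with TNF-α) and 2.87 and 2.87 (KD with TNF-α) and was not called (-0.11). Of 15 genes of the anaphase-promoting complex, its activator FZR1 among them, 4 were higher and 7 lower, against the same 29.8% and 30.2%, so that the share of higher genes was near that of all genes. The median was -0.22, and 0.03 with total-read scaling. CDC27 (6824 bases, 37.6% GC), a scaffold subunit, was the highest at 1.35, with 5.63 and 7.38 FPKM (control), 16.6 and 19.4 (KD), 7.90 and 7.57 (control with TNF-α) and 7.03 and 7.23 (KD with TNF-α). ANAPC11 (4027 bases, 58.7% GC), the RING subunit, was the lowest at -1.22, with 44.8 and 31.4 FPKM (control), 17.0 and 14.2 (KD), 28.5 and 32.6 (control with TNF-α) and 29.9 and 29.3 (KD with TNF-α).

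Of 31 genes of G1 and S phase, 7 were higher and 14 lower without TNF-α, against 29.8% and 30.2% of all genes, with a median of -0.20 and 49.6% GC in the median. After the correction the counts were 5 and 12, against 23.7% and 28.1%, and with total-read scaling 9 were higher and 9 lower, with a median of 0.05. No test of the list was made, and the share of all genes called with total-read scaling is not given. CDK6 (12260 bases, 40.4% GC), a G1 kinase, was the highest at 2.13, with 6.51 and 11.9 FPKM in unstimulated control, 38.3 and 46.2 in unstimulated KD, 16.9 and 14.9 in stimulated control and 18.1 and 18.4 in stimulated KD cells. TK1 (1861 bases, 62.1% GC), thymidine kinase, was the lowest at -1.22, with 298 and 233 FPKM (control), 121 and 104 (KD), 248 and 271 (control with TNF-α) and 247 and 238 (KD with TNF-α). Of the CDK inhibitors and genes of cell cycle arrest, 10 of 12 could be tested, 2 were higher and 5 lower, against 29.8% and 30.2% of all genes, with a median of -0.49 (-0.09 after the correction). CDKN1A (3050 bases, 57.8% GC), the gene of p21, was at 94.5 and 84.0 FPKM (control), 53.9 and 51.3 (KD), 115 and 118 (control with TNF-α) and 130.4 and 129 (KD with TNF-α), a difference of -0.75 (adjusted p = 0.000306 from limma) without and 0.16 (adjusted p = 0.727 from limma) with TNF-α. CDKN2D (1503 bases, 62.1% GC), the gene of p19, was the lowest at -0.80, with 10.7 and 9.72 FPKM (control), 5.61 and 5.31 (KD), 7.99 and 7.94 (control with TNF-α) and 7.66 and 7.53 (KD with TNF-α), and at -0.17 (adjusted p = 0.109 from limma) after the correction. MDM2 (13284 bases, 41.9% GC), a ubiquitin ligase and target of p53, was the highest at 1.55, with 2.40 and 3.57 FPKM (control), 9.91 and 11.1 (KD), 3.38 and 3.22 (control with TNF-α) and 2.87 and 2.98 (KD with TNF-α). With TNF-α, the KD effect was called for 1 of the 148 genes of these 6 lists that could be tested, BTG2, an arrest gene, which was lower at -0.58 (adjusted p = 0.0489 from limma) and had an adjusted p of 0.05 or more in 12 of 19 alternative fits.

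The CHR core was in the promoters of 24 of the 26 higher genes that had an entry, of 4 of the 9 lower genes and of the 3 not called. CCAAT was in 17 of the 26, 8 of the 9 and 3 of the 3. These shares are counts over a list chosen with results known, and no test was made of them.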

How the data were processed

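Total RNA of U2OS cells in 4 groups of 2 libraries was sequenced at Novogene (Illumina NovaSeq). The authors deposited FPKM values for 58735 genes in each of 8 libraries, with the exon length of each gene in bases per the file headers. Per the labels, the submitters' processing notes name CASAVA 1.8, fastp, HISAT2 2.0.5, featureCounts 1.5.0-p3, DESeq2 1.20.0 and the builds GRCh38 and hg38, without roles. Strand and treatment of shared reads are not given in the sources used here. Values multiplied by exon length came in steps of 1 size within each library, so that whole reads (tolerance 0.05 reads) were recovered for 100% of them, together with the library sizes the authors had used. All 58735 genes matched release 29 of GENCODE by identifier, position and strand, and 58676 had a GC content, all 44 genes of the set among them.

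Differences were computed on log2(FPKM + 1), which understates changes of genes near or below 1 FPKM, with limma 3.58.1 (R 4.3.3). The design had 4 group means over 8 libraries, 4 residual degrees of freedom and variances moderated with a trend on mean expression. It was fitted to 16528 genes that reached 10 reads, at the median depth, in 2 libraries and 15 reads in all, and P-values were adjusted by Benjamini-Hochberg over all of them, with calls at an adjusted p under 0.05. No count test was used, since the values are not counts, and a voom fit of the recovered reads was an alternative. The study's own thresholds on edgeR results were not applied. The other alternatives were a pseudocount of 0.1, scaling to total reads or upper-quartile factors, other filters (1 read in any library, or a mean of 1 CPM), splines with 5 degrees of freedom each on GC content and log exon length, only the libraries compared, a replicate block, and leaving out libraries. The fits were also run on simulated data with few changed genes and no trend on GC content. That run does not test how the fits behave with the trend seen here. The other steps ran in Python 3.11.15 (numpy 2.4.6; pandas 2.3.3; matplotlib 3.10.9).

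The set, the lists of other genes and the tests were chosen with earlier results of these data known. Values in every library are given for the 5 genes of the set with the largest and the 5 with the smallest difference in each comparison, for WSB2, FOXM1, MYBL2, LIN9 and CDKN1A, and for the highest and lowest gene of each other list without TNF-α. Other genes were singled out after their values were seen. Promoters are those of the 3 highest and 3 lowest genes of the set without TNF-α, except BIRC5 among the lowest, which had no entry.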

Additional observations from a re-analysis of the deposited data

Results flagged for a closer look

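The effect of KD with TNF-α minus the effect without it differed from 0, at an adjusted p under 0.05 for this difference itself, in 35 of the 44 genes of the set and in 14 of the 16 other genes whose level in every library is given above, against 23.8% above and 22.3% below 0 among all genes. Most of the 16 were named as the highest or lowest of their list in unstimulated cells, which uses the same libraries, so that their count was largely fixed by that choice and supports nothing. Each of these values uses the 2 unstimulated KD libraries, which stand apart in mitochondrial reads and GC content, and the part of that in the values was not tested beyond the correction for GC content and length.

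In the set, the difference in log2 units was below 0 in 26 genes: CENPF (-2.87), KIF20B (-2.60), SMC4 (-2.55), CENPE (-2.46), TOP2A (-2.45), SMC2 (-2.32), ASPM (-2.30), KIF14 (-2.24), KIF18A (-2.23), KIF15 (-2.17), ANLN (-2.10), ECT2 (-2.05), HMMR (-1.92), KIF11 (-1.90), KNTC1 (-1.88), NUF2 (-1.81), TTK (-1.75), NCAPG (-1.69), DLGAP5 (-1.60), NDC80 (-1.56), KIF23 (-1.28), MKI67 (-1.27), BUB1B (-1.01), CDK1 (-0.82), BUB1 (-0.76) and CCNA2 (-0.58). It was above 0 in 9 genes: KIF2C (0.40), CENPA (0.43), CCNB1 (0.48), UBE2C (0.82), PTTG1 (0.84), BIRC5 (0.88), AURKB (0.88), PLK1 (0.90) and CDC20 (0.96).

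Among the other genes it was below 0 for SMC3 (-2.50), KNL1 (-2.41), CDK6 (-1.93), MDM2 (-1.68), RB1 (-1.51), CDC27 (-1.45) and LIN9 (-0.67), and above 0 for FOXM1 (0.36), CDKN2D (0.74), CDKN1A (0.91), MYBL2 (1.01), CENPM (1.02), TK1 (1.13) and ANAPC11 (1.18). With the correction for GC content and length, CDK1, BUB1, CCNA2, CENPA and KIF2C in the set (adjusted p of 0.0824 to 0.370 from limma) and FOXM1, LIN9 and CDKN2D among the other genes no longer passed the threshold in this difference. With total-read scaling, CCNB1, CENPA, KIF2C and FOXM1 did not pass it. Groups of 2 libraries allowed no check for an outlying library.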

How the results depend on the processing

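Without TNF-α, 25 to 31 genes of the set were higher and 7 to 14 lower over the alternatives tried. All of these fits used unstimulated KD libraries, so that none of them could test the part of those libraries in the differences. Scaling to total reads gave 7 lower genes, and turned AURKA to 0.0631, KIF20A to 0.0316, NCAPD2 to 2.24e-04 and TPX2 to 0.27, and upper-quartile factors turned KIF4A to -0.0234. Total-read scaling also called MAD2L1 (0.39), TPX2 and PRC1 higher, and upper-quartile factors called CCNB2 (-0.41) and TPX2 lower. The correction for GC content and length, with or without the replicate block, turned MAD2L1 to -0.51 without TNF-α, to 0.25 for TNF-α in KD cells and to 0.51 for the difference in the KD effect. Leaving out each library in turn gave 26 to 28 higher and 9 to 12 lower genes, and AURKA, KIF20A, KIF4A, NUSAP1 and NCAPD2 each lost the call in at least 1 of these fits. For TNF-α in KD cells, scaling to total reads gave 5 higher genes in place of 8 and put AURKA at -0.30, and leaving out each library gave 7 to 9 higher and 26 to 30 lower, with CCNB1, KIF4A, NUSAP1 and MKI67 each losing the call at least once. For the difference in the KD effect, leaving out each library gave 6 to 10 genes above and 26 to 27 below 0, CCNB1, CENPA and KIF2C each lost the call at least once, and CENPA and MKI67 lost it without the filter on low reads. For TNF-α in control cells, TOP2A was the 1 gene higher in the voom fit and after the correction, with or without the replicate block, and leaving out each library in turn gave 0 to 9 higher and 0 to 2 lower genes, with all of the 9 and 2 from leaving out replicate 2 of the unstimulated control cells. The counts of this paragraph stand without the shares of all genes called in each fit, and the cause of these shifts was not tested. The KD effect with TNF-α had no call in the set under any alternative.

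The labels do not say whether the replicate numbers pair the samples. Deviations of same-numbered libraries correlated between -0.19 and 0.35 over the 6 pairs of groups, highest between unstimulated control and unstimulated KD cells. A replicate block, which took a common effect in all 4 groups, gave 27 higher and 11 lower genes without TNF-α. The share of all genes called in that fit is not given. Such a block does not settle a pairing within the unstimulated groups alone. With 2 libraries a group, a gene such as PRC1, with 274 reads in all, is measured too coarsely for small differences to be detectable.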
